A study of Homo sapiens with 21 samples.

Results

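Matrix metalloproteinases and the tissue inhibitors of metalloproteinases (TIMPs) were described here as 10 genes: MMP1, MMP3, MMP10, MMP7, MMP2, MMP9, MMP14, TIMP1, TIMP2 and TIMP3. The genes were picked by symbol from the array's probe table, with results of these arrays already known, and 11 of the 26947 probe sets carried one of the 10 symbols. Where a gene had more than 1 probe set, which held for TIMP3 alone, the one with the highest mean over the 21 arrays was used. The array named 18374 genes through probe sets with a single symbol, and 15 further matrix metalloproteinase genes were among them.

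All samples came from U-87MG, an established human glioblastoma line, stably carrying parkin or the empty vector. Parkin, an E3 ligase, tags proteins of failing mitochondria with ubiquitin. The vector group was made of the clones V8, V17 and V22, with 12 arrays, and the parkin group of PK7, PK19 and PK25, with 9 arrays. Each was a single clone, so a value belongs to a clone first and to a group only through 3 clones. V8 and V17 were hybridised in a first series of arrays only, the parkin clones in a second series only, and V22 in both, as the prefixes of the array names were read here. Each clone was therefore set against the 3 V22 arrays of its own series. Whether the 3 arrays of a clone came from separate cultures is not given, so p-values over arrays measure only the spread between these arrays.

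Matrix metalloproteinases are zinc endopeptidases that cut collagens, laminins, proteoglycans and many non-matrix proteins outside the cell. They are made as inactive precursors, are switched on by cleavage, and are held in check by the TIMPs, which bind the active site. In glioma they are known for clearing matrix ahead of invading cells. MMP1, MMP3, MMP7 and MMP10 lie in a cluster of metalloproteinase genes on the long arm of chromosome 11, and several genes of that cluster are textbook targets of the transcription factor AP-1 and of inflammatory cytokines.

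RefSeq promoter sequences (GRCh38.p14) were matched for 5 of the 10 genes: MMP10, MMP7, MMP14, TIMP1 and TIMP3. Those of MMP1, MMP2, MMP3, MMP9 and TIMP2 were not used here. Below are the 140 bases before the annotated start of MMP10 and MMP7, the matched genes of the chromosome 11 cluster, and of MMP14, which lies on chromosome 14 and serves as the contrast. They are written 5′ to 3′ on the strand of the gene. Capitals mark TGANTCA, which is the motif of AP-1, TATAAA, the motif of a TATA box, or GGGCGG, the core of a GC box, each searched on both strands.
MMP10, minus strand, chr11:102780629-102780768: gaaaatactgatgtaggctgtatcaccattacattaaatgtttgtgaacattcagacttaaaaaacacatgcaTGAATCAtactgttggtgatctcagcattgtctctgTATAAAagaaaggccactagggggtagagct
MMP7, minus strand, chr11:102530748-102530887: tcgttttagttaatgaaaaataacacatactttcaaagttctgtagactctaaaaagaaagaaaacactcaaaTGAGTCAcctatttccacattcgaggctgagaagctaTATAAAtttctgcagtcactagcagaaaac
MMP14, plus strand, chr14:22836445-22836584: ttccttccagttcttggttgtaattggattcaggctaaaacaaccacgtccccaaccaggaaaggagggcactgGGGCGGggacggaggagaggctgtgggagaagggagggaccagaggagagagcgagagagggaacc

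MMP10 and MMP7 each held TGANTCA 67 bases before the start and TATAAA 31 or 30 bases before it. The MMP7 copy was the consensus TGAGTCA. MMP14, TIMP1 and TIMP3 held a GC box and neither of the other motifs. Over 250 bases before the start, TGANTCA was present in 6.57% of 35116 promoters, TGAGTCA, which is contained in it, in 4.2%, TATAAA in 10.7% and GGGCGG in 42.6%. A match is a run of letters, not a shown binding site.

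Only MMP1 and MMP3 differed from V22 by at least 2-fold in any clone. That is 2 of 10 genes, where 4.85% of all probe sets did so. MMP3 was higher in PK19, PK7, V8 and PK25, and MMP1 in PK25 and V8. V8 is a vector clone, so neither gene separated parkin from vector. These differences entered the choice of the genes and are given as a description, without a test.

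MMP3, stromelysin-1, degrades proteoglycans and laminin and activates other metalloproteinase precursors. Its log2 intensity on the 3 V22 arrays was 6.52, 6.14 and 6.41 in the first series and 7.04, 5.66 and 7.01 in the second. PK19 read 10.84, 10.67 and 10.98, and PK7 read 10.15, 9.69 and 10.27. All arrays of both clones lay above all V22 arrays, by 4.26 (19.2-fold) for PK19 and 3.47 (11.1-fold) for PK7.

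PK25 was lower, with MMP3 at 9.16, 7.29 and 8.58, a difference of 1.77 (3.42-fold). The set 2 array of PK25 lay just above the highest V22 array, and without it the difference was 2.30, and without the low V22 array of set 5 it was 1.32. V8 read 9.06, 10.64 and 8.23, a difference of 2.95 (7.75-fold) that fell to 2.29 without its set 2 array. V17 read 6.32, 7.75 and 6.59 and overlapped V22, with a difference of 0.53.

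MMP3 thus ranked PK19, PK7, V8, PK25, V17 and V22 by difference. PK19 and PK7 did not overlap, whereas each later neighbour in this order overlapped the next. The spread between arrays was uneven, from an SD of 0.16 in PK19 to 1.22 in V8 (n = 3 each).

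MMP1, interstitial collagenase, cleaves fibrillar collagens. The V22 arrays gave 7.35, 6.52 and 7.11 in the first series and 6.63, 6.15 and 6.71 in the second. PK25 gave 9.48, 8.22 and 9.01, which was 2.41 (5.30-fold) above V22, and V8 gave 8.63, 9.75 and 8.65, which was 2.01 (4.04-fold) above it. All arrays of both clones lay above V22, and the ranges of PK25 and V8 overlapped. Without the set 2 arrays of V8 and V22 the V8 difference was 1.41.

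In the remaining clones MMP1 differed from V22 by less than 2-fold. PK19 read 6.88, 6.97 and 6.95, all above V22 by a mean of 0.44. V17 read 7.40, 6.77 and 7.03, a difference of 0.07. PK7 read 6.05, 5.56 and 6.24, a difference of -0.55 with overlapping arrays. PK7 therefore had the second highest MMP3 and the lowest MMP1, and PK25 the highest MMP1 and an intermediate MMP3. The same arrays gave both genes, and MMP1 and MMP3 were adjacent among the measured genes of the cluster.

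**Figure D1:**
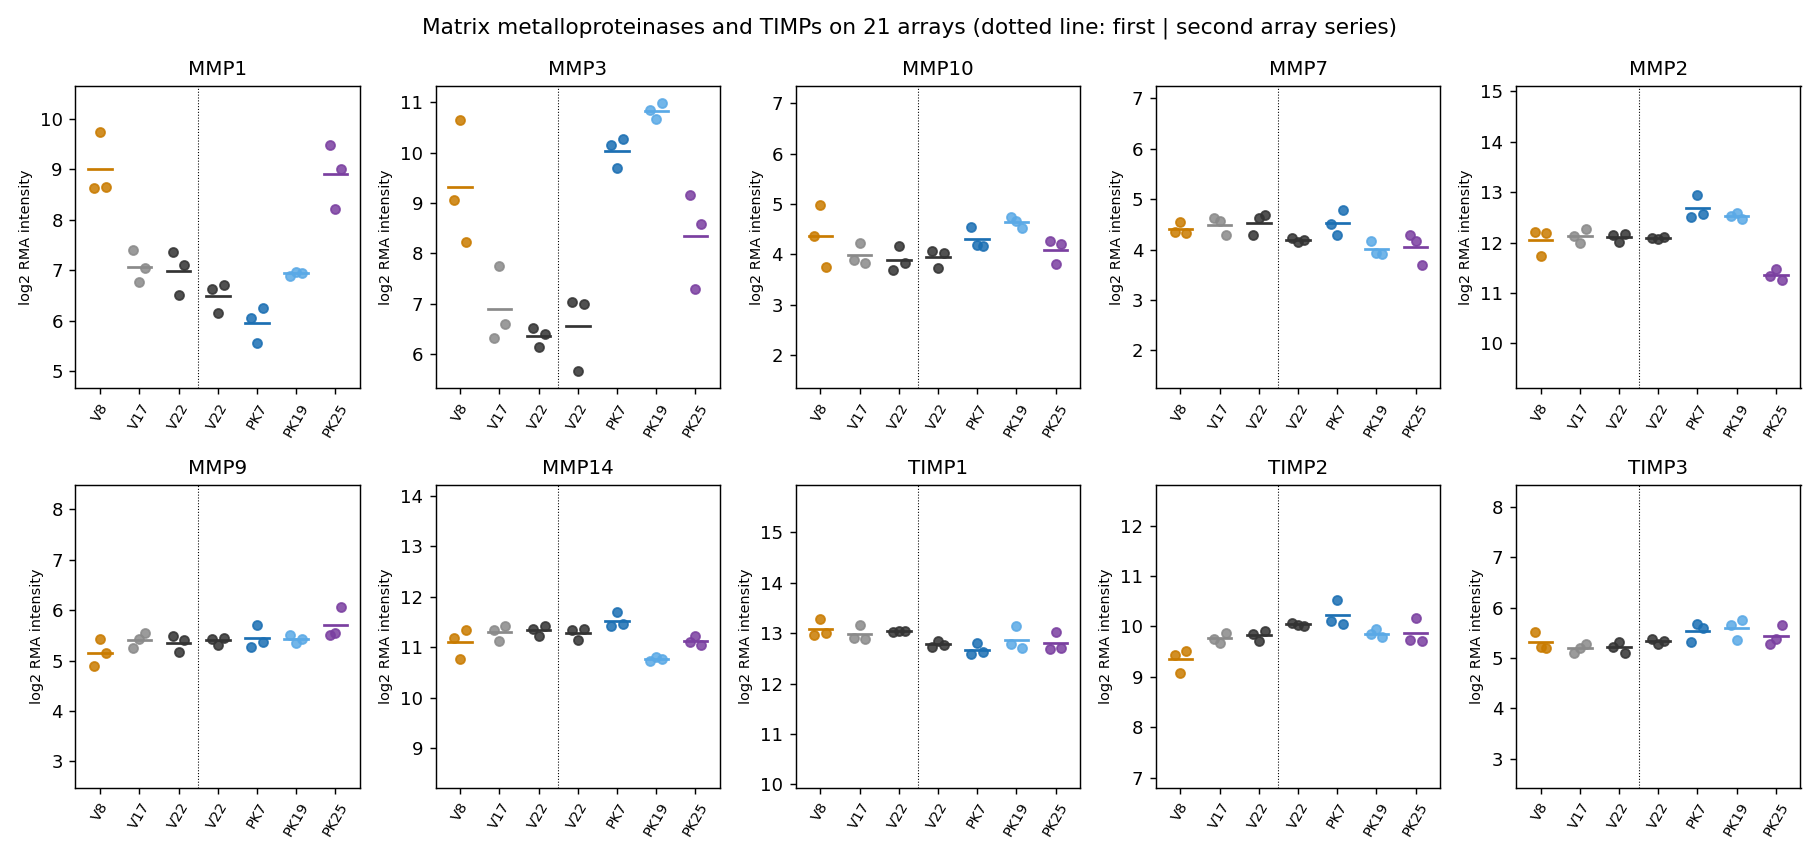
Log2 RMA intensity of the 10 genes on each of the 21 arrays, by clone, with the first array series left of the dotted line and the second right of it. Points are arrays and bars are means of 3 arrays, and each panel has its own axis. MMP3 spans 5.66 to 10.98 and MMP1 5.56 to 9.75, and the other genes stay within 1.69 log2 units.

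MMP10, stromelysin-2, was among the dimmest 30% of probe sets. V22 read 3.70, 4.17 and 3.82 in the first series and 4.06, 3.73 and 4.02 in the second. PK19 read 4.75, 4.67 and 4.53 and PK7 read 4.54, 4.18 and 4.16, all above V22, by 0.71 (1.63-fold) and 0.36 (1.28-fold). V8 read 4.36, 4.98 and 3.76 and overlapped V22 (0.47). PK25 (0.15) and V17 (0.08) overlapped it too. The PK19 difference stood at 0.39 when 16 was added to the intensities before log2.

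MMP7, matrilysin, was also among the dimmest 30%. PK7 read 4.51, 4.29 and 4.79 against 4.23, 4.16 and 4.19 in V22 of the second series, a difference of 0.34 with no overlap. The other clones overlapped V22, with differences of -0.05 in V17 to -0.19 in PK19. For this gene, however, the V22 arrays of the first series, at 4.28, 4.64 and 4.69, did not overlap those of the second.

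MMP2, gelatinase A, digests basement membrane and denatured collagen. V22 read 12.15, 12.02 and 12.17 in the first series and 12.10, 12.07 and 12.12 in the second. PK7 read 12.51, 12.95 and 12.58 and PK19 read 12.53, 12.59 and 12.47, above every V22 array by 0.59 and 0.44 (1.36-fold). PK25 read 11.33, 11.47 and 11.26, below every V22 array by 0.74 (1.67-fold lower). The parkin clones thus lay on both sides of V22, and V8 (-0.07) and V17 (0.02) overlapped it.

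MMP9, gelatinase B, was above V22 in PK25 alone. Its PK25 arrays read 5.50, 5.55 and 6.07 against 5.44, 5.32 and 5.44 in V22, a difference of 0.31. The differences of the other clones ran from -0.20 in V8 to 0.06 in V17, all with overlap.

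MMP14 is a membrane-anchored protease that activates the MMP2 precursor in a complex with TIMP2. V22 read 11.33, 11.15 and 11.37 in the second series. PK19 read 10.73, 10.80 and 10.77, below V22 by 0.51 (1.43-fold lower), and PK7 read 11.41, 11.70 and 11.46, above it by 0.24. PK25 (-0.16), V8 (-0.24) and V17 (-0.04) overlapped V22.

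TIMP1, a broad inhibitor of secreted metalloproteinases, overlapped V22 in all 5 clones, with differences of -0.11 to 0.09. Over the 21 arrays it ran from 12.60 to 13.28. The V22 arrays of the 2 series did not overlap for TIMP1: they read 13.03, 13.05 and 13.03 in the first series and 12.73, 12.85 and 12.77 in the second.

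TIMP2, which also takes part in MMP2 activation, read 9.44, 9.07 and 9.52 in V8 against 9.84, 9.71 and 9.92 in V22 of that series, a difference of -0.48 (1.39-fold lower) with no overlap. In PK19 it read 9.86, 9.94 and 9.78 against 10.07, 10.04 and 10.01 in V22, a difference of -0.18, also with no overlap. PK7 (0.18), PK25 (-0.17) and V17 (-0.06) overlapped V22. V22 itself differed by 0.22 between the series, more than the PK19 difference.

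TIMP3, an inhibitor that binds to the matrix, stayed within 0.26 of V22 in all clones, and every clone overlapped it. PK19 read 5.65, 5.36 and 5.76 and PK7 read 5.33, 5.67 and 5.60, against 5.37, 5.29 and 5.34 in V22 of the second series. The other TIMP3 probe set was dimmer, and its PK25 and PK19 arrays lay above all V22 arrays, by 0.51 and 0.33.

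**Figure D2:**
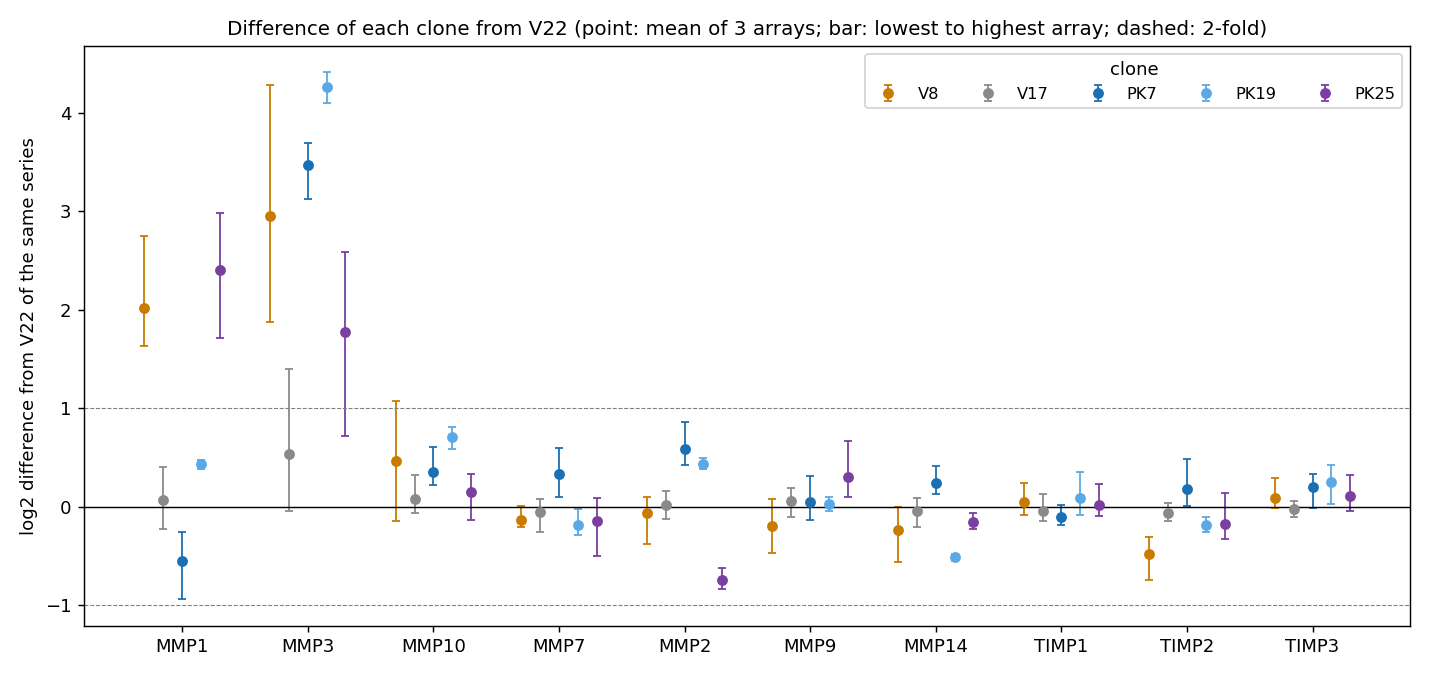
Log2 difference of each clone from V22 of the same array series, for the 10 genes. Points are means of 3 arrays, bars run from the lowest to the highest array of the clone, and dashed lines mark 2-fold. MMP3 in PK19, PK7, V8 and PK25 and MMP1 in PK25 and V8 are the 6 points beyond 2-fold.

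By clone, the number of the 10 genes past 2-fold was 2 in V8, where 1.02% of all probe sets were, 0 in V17 (0.0408%), 1 in PK7 (2.38%), 1 in PK19 (2.95%) and 2 in PK25 (0.252%). The number whose arrays did not overlap V22 was 3 in V8, against 24.3% of all probe sets, 0 in V17 (8.71%), 5 in PK7 (32.4%), 6 in PK19 (31.2%) and 4 in PK25 (16.3%). The median difference of the 10 genes was 0.22 in PK7 and 0.17 in PK19, and between -0.01 and 0.06 in V8, V17 and PK25. The median of all probe sets lay between -0.0034 and 0.019 in the 5 clones. Because these contrasts were known when the genes were chosen, nothing is read from the shares.

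The comparison the design states, parkin against vector, was made on the 6 clone means after the first series was aligned to the second through V22. MMP3 averaged 9.74 ± 1.27 (SD, n = 3 clones) in parkin and 7.73 ± 1.57 in vector clones, a difference of 2.01 (SE 0.91, limma adjusted p = 0.377), with 2 of 3 parkin clones above every vector clone. MMP1 averaged 7.26 in parkin and 7.19 ± 1.14 (SD, n = 3) in vector clones, with parkin clones from 5.95 to 8.90, a difference of 0.07 (SE 0.85, limma adjusted p = 0.976). MMP2 differed by 0.11 (SE 0.33), with a parkin SD of 0.73 against 0.044 in vector clones.

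TIMP3 was the only one of the 10 genes whose 3 parkin clones lay above all vector clones, at 5.52 ± 0.076 against 5.36 ± 0.063 (SD, n = 3), a difference of 0.16 (SE 0.076, limma adjusted p = 0.384). Groups lay apart in this way, in either direction, for 23.1% of all probe sets. None of the 10 genes passed an adjusted or an unadjusted p of 0.05 in this limma comparison, where 0.00371% (1 of 26947) of all probe sets passed the adjusted and 14.1% the unadjusted threshold. The comparison reuses the arrays on which the genes were chosen, and the array series cannot be told apart from the group except through V22. Between the series, limma called 1 probe set for V22 at an adjusted p under 0.05 and 2-fold. With 1 array left out it called 0 to 2. The single call between parkin and vector became 3 without V8 and 38 without PK25.

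Each gene's difference was also set beside that of its chromosomal neighbours, as the median difference of the 50 nearest genes with a mean log2 intensity above 7. Values relative to the neighbours were formed on each array and then averaged, so they differ slightly from the gene's difference minus this median. Around MMP14 on chromosome 14 this median was -0.69 in PK19, -0.33 in PK7, -0.25 in PK25 and -0.24 in V8. In PK7 MMP14 was thus higher than V22 while its neighbours were lower. Relative to its neighbours MMP14 stood at 0.54 in PK7, 0.17 in PK19 and 0.08 in PK25, the last pair with the direction turned.

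Around MMP2 on chromosome 16 the neighbours' median was -0.32 in PK25 and 0.23 in PK7. MMP2 relative to them stood at -0.42 in PK25 and 0.36 in PK7, in the same directions as before. The neighbours of TIMP3 on chromosome 22 had a median of -0.58 in PK7 and -0.27 in PK25, and TIMP3, whose own arrays overlapped V22, lay 0.75 and 0.36 above them. TIMP2 in V8 stood at -0.48 beside a median of -0.18 on chromosome 17. Around MMP1 and MMP3 the median lay between -0.07 and 0.17 in every clone. Whether copy number entered these values was not tested.

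**Figure D3:**
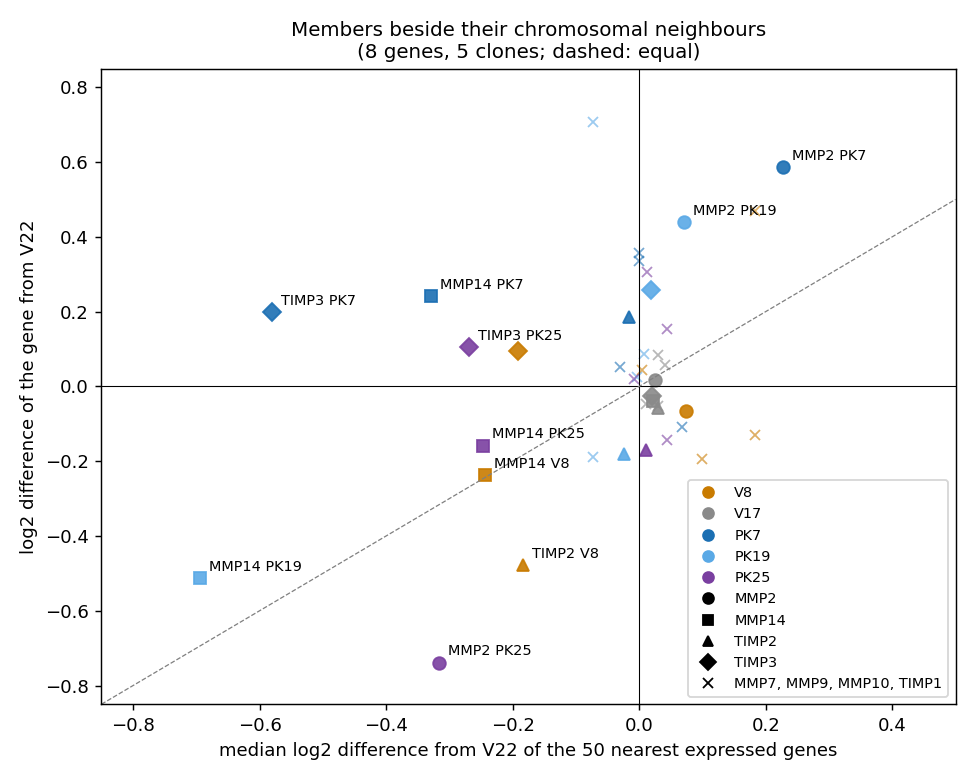
Log2 difference of each gene from V22 (vertical axis) against the median log2 difference of its 50 nearest expressed genes on the chromosome (horizontal axis), for the 8 genes other than MMP1 and MMP3 in 5 clones. The dashed line marks equal values; MMP14 in PK19, at -0.51 beside neighbours at -0.69, lies just above it, and MMP2 in PK25, at -0.74 beside -0.32, lies below it.

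The measured genes of the chromosome 11 cluster were, in chromosome order, MMP7, MMP20, MMP27, MMP8, MMP10, MMP1, MMP3, MMP12 and MMP13. MMP20, an enamel protease, MMP27, MMP8, the neutrophil collagenase, and MMP13, a collagenase of cartilage, differed from V22 by -0.28 to 0.20 in the 5 clones, and their probe sets were among the dimmest 30%. MMP12, macrophage elastase, read 8.16 in V8, 6.72 in V17 and 5.31 in V22 on the set 2 arrays of the first series. On the other arrays of that series it read 4.51 to 4.67. The V8 mean difference of 0.95 therefore came from 1 array. In PK25 MMP12 read 5.44, 4.94 and 5.12 against 4.59, 4.20 and 4.55 in V22, all above it by 0.72 (limma adjusted p = 0.734).

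**Figure D4:**
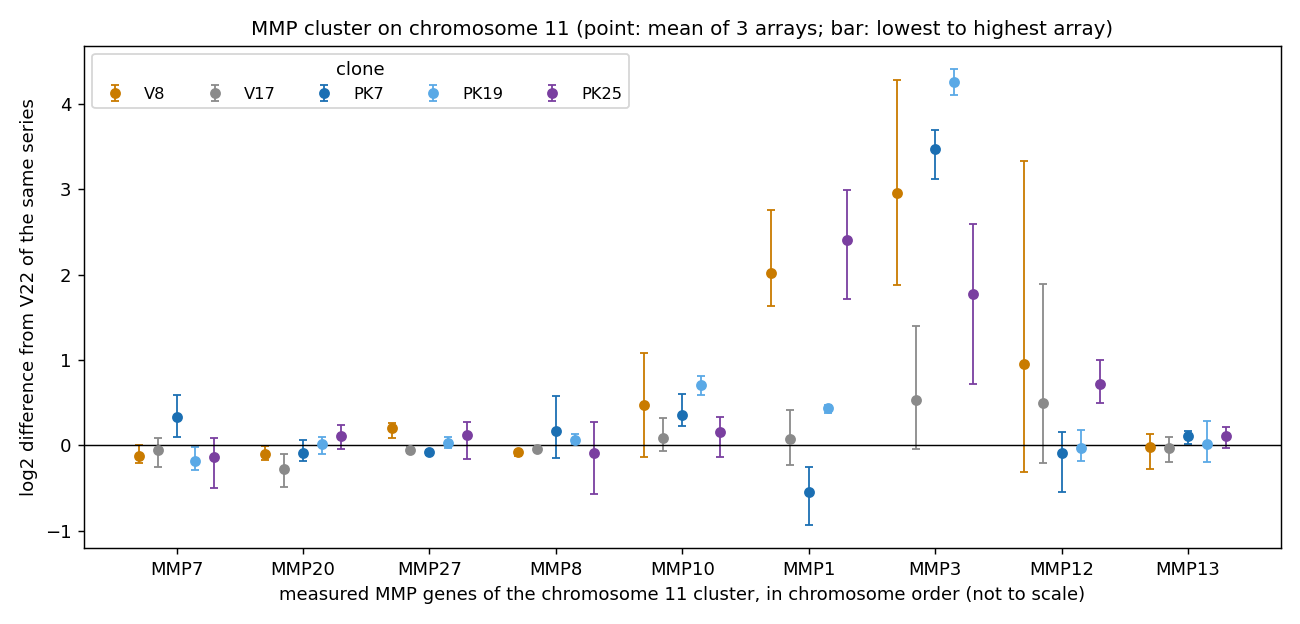
Log2 difference from V22 of the same array series for the 9 measured genes of the chromosome 11 metalloproteinase cluster, in chromosome order and not to scale. Points are means of 3 arrays and bars run from the lowest to the highest array; MMP1 and MMP3 exceed 2-fold, and MMP12 reaches 3.33 on 1 V8 array with a mean of 0.95.

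Further genes of the pathway came from lists that were likewise drawn up with results of these arrays known. A gene counted as changed when its limma p, adjusted over the whole array, was under 0.05 and it differed from V22 by at least 2-fold. Among all probe sets 0.568% rose and 0.412% fell in V8, 1.44% and 0.865% in PK7, 1.62% and 1.27% in PK19, and 0.0742% and 0.119% in PK25. In V17 limma called no probe set, and 2.71% had an unadjusted p under 0.05. For each gene named from these lists as risen or fallen, all 3 arrays of the clone lay outside the V22 range. A clone not named for a gene missed at least 1 of the thresholds, which does not show that the gene was unchanged in it.

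Of 11 measured inhibitors outside the 10 genes, 1 rose in PK7, and 2 rose and 1 fell in PK19. TIMP4, the fourth TIMP, rose in both. It read 9.11, 8.83 and 9.14 in PK7 and 8.82, 8.62 and 8.68 in PK19, against 7.10, 7.18 and 7.47 in V22 of the second series. The differences were 1.78 (limma adjusted p = 5.6e-08) and 1.46 (limma adjusted p = 5.04e-07). PK25 at 8.03, 8.06 and 8.13 was above these V22 arrays by 0.83, under 2-fold. V8 at 7.65, 7.26 and 7.64 was above V22 of the first series, at 7.22, 6.56 and 7.01, by 0.59. For TIMP1, TIMP2 and TIMP3 the differences in PK7 and PK19 had run from -0.18 to 0.26.

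In PK19 the protease inhibitor gene TFPI2 rose by 1.13 (limma adjusted p = 0.000803), and SERPINE2, which encodes an inhibitor of thrombin and plasminogen activators, fell by 1.24 (limma adjusted p = 3.85e-07). PLAT, tissue plasminogen activator, was the 1 of 15 genes of plasminogen activation and precursor processing that changed: it fell by 1.06 in PK19 (limma adjusted p = 4.52e-05). That call was lost with 16 added to the intensities, relative to the neighbours, and without the PK19 array of set 1. MMP16, another membrane-type protease, was the 1 of 15 other metalloproteinase genes that changed, with 8.04, 7.89 and 8.16 in PK19 against 9.06, 9.15 and 8.99 in V22. It fell by 1.04 (limma adjusted p = 1.46e-06), a call lost with 16 added, without the V22 array of set 5 and without the PK19 array of set 2.

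Among 28 ADAM and ADAMTS genes, relatives that shed surface proteins or cut proteoglycans, 1 rose in V8, 1 rose and 2 fell in PK7, and 2 rose and 1 fell in PK19. ADAMTS5, an aggrecanase, rose by 2.58 in PK19 (limma adjusted p = 1.72e-07). ADAMTS6 rose by 1.70 in V8 and 1.10 in PK19, the latter call being lost with 16 added. In PK7, ADAMTS18 fell by 2.13 and ADAMTS3, which processes procollagen, fell by 1.71, while ADAM28 rose by 1.48. In PK19, ADAMTS3 stood at -0.82 and ADAM28 at 0.86, under 2-fold (limma adjusted p = 0.00085 and 0.00719). ADAM8 fell by 1.03 in PK19, a call lost with 16 added and without the PK19 array of set 1. It stood at -0.91 in PK7, under 2-fold (limma adjusted p = 0.000556).

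Of 28 cytokine, growth factor and receptor genes that act on metalloproteinase genes, 6 rose in V8, 5 rose and 2 fell in PK7, 8 rose in PK19 and 1 rose in PK25. IL1B, an inflammatory cytokine, rose in the 4 clones in which MMP3 was past 2-fold. It rose by 2.98 in V8, 1.95 in PK7, 3.63 in PK19 and 2.24 in PK25, with limma adjusted p-values of 8.94e-05, 0.00205, 2.05e-06 and 0.00748. V17 stood at 0.13. V22 itself averaged 8.51 (SD 0.73) for IL1B in the first series and 7.40 (SD 0.24) in the second. PK7 averaged 9.34 and PK25 9.64, so their size of rise depends on the V22 arrays of the second series.

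CXCL8, a neutrophil chemokine, rose by 2.80 in V8, 2.69 in PK7 and 3.34 in PK19 and stood at 0.56 in PK25. IL6 rose by 3.12 in PK19 and by 1.41 in PK7 (limma adjusted p = 0.0111), the PK7 call being lost without the V22 array of set 5 and without the PK7 array of set 2. It stood at 1.11 in V8 (limma adjusted p = 0.0746) and -0.12 in PK25. EREG, an EGF receptor ligand, rose by 1.43 in V8 and 1.30 in PK19. HGF fell by 1.56 in PK7. In PK25, the clone with the highest MMP1, IL1B passed the rule and CXCL8 and IL6 did not, and the difference between the clones was not tested.

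No AP-1 or ETS transcription factor gene, of 27 measured, changed by this rule in any clone. An adjusted p under 0.05 at any fold was reached by 2 of them in V8, 3 in PK7, 6 in PK19 and 0 in PK25 and V17, where the share of all probe sets was 8% for V8, 15.2% for PK7, 14% for PK19, 1.37% for PK25 and 0 for V17. For an unadjusted p under 0.05, V8 had 5 of the 27 genes against 19.2% of all probe sets, PK7 had 8 against 25.7%, PK19 had 11 against 22.6%, PK25 had 1 against 11.3% and V17 had 0 against 2.71%.

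Of 19 surface and endocytic partners, CD9, a tetraspanin, rose in V8 by 2.01 (limma adjusted p = 8.13e-08) and in PK25 by 1.09 (limma adjusted p = 0.000633), the clones with high MMP1. The PK25 call was lost relative to the neighbours, without the V22 array of set 5 and without the PK25 array of set 2. The integrin genes ITGAV and ITGA2 rose by 1.17 and fell by 1.19 in PK7, and the ITGA2 call was lost relative to its neighbours. In PK19 they stood at 0.54 and -0.71, and in V8 at 0.45 and 0.39, all under 2-fold. ITGAV was also the 1 of 7 genes of the MMP14 and MMP2 activation complex that changed, a list that contains MMP2, MMP14 and TIMP2.

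Among 24 matrix substrates, 2 rose in V8, 6 rose in PK7 and 3 fell in PK19. LAMA4, a laminin chain gene, rose by 2.29 in PK7 and 1.38 in V8. FBN1, fibrillin-1, rose by 1.35 in PK7 and COL5A1 by 1.26, the latter call being lost without the PK7 array of set 2. The second gene that rose in V8 was the proteoglycan gene DCN, a dim probe set at 1.19, whose call was lost with 16 added, relative to the neighbours and without the V8 array of set 2. In PK19 the fibrillar collagen genes COL1A2 and COL1A1 fell by 2.29 and 1.37 (limma adjusted p = 1.36e-08 and 8.73e-05), and LAMC1 fell by 1.14, a call lost relative to its neighbours. COL1A1, COL1A2 and DCN also stand on the fibroblast and pericyte marker list, whose mean log2 level was 6.58 to 6.79 in PK19, 6.97 to 7.70 in PK7, 7.15 to 7.27 in V8, and 6.99 to 7.12 and 6.75 to 6.86 in V22 of the first and second series. Of the 10 markers on it, 2 rose in V8, 1 rose and 1 fell in PK7, 1 rose and 3 fell in PK19, and none passed the rule in PK25 or V17. Beside the genes already given, LUM rose by 2.20 in V8, FAP rose by 1.40 and PDGFRA fell by 1.35 in PK7, and PDGFRA fell by 1.54 in PK19. RGS5, a pericyte marker, rose by 1.46 in PK19, a call lost with 16 added. The part of this list in the metalloproteinase and substrate values was not tested.

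**Figure D5:**
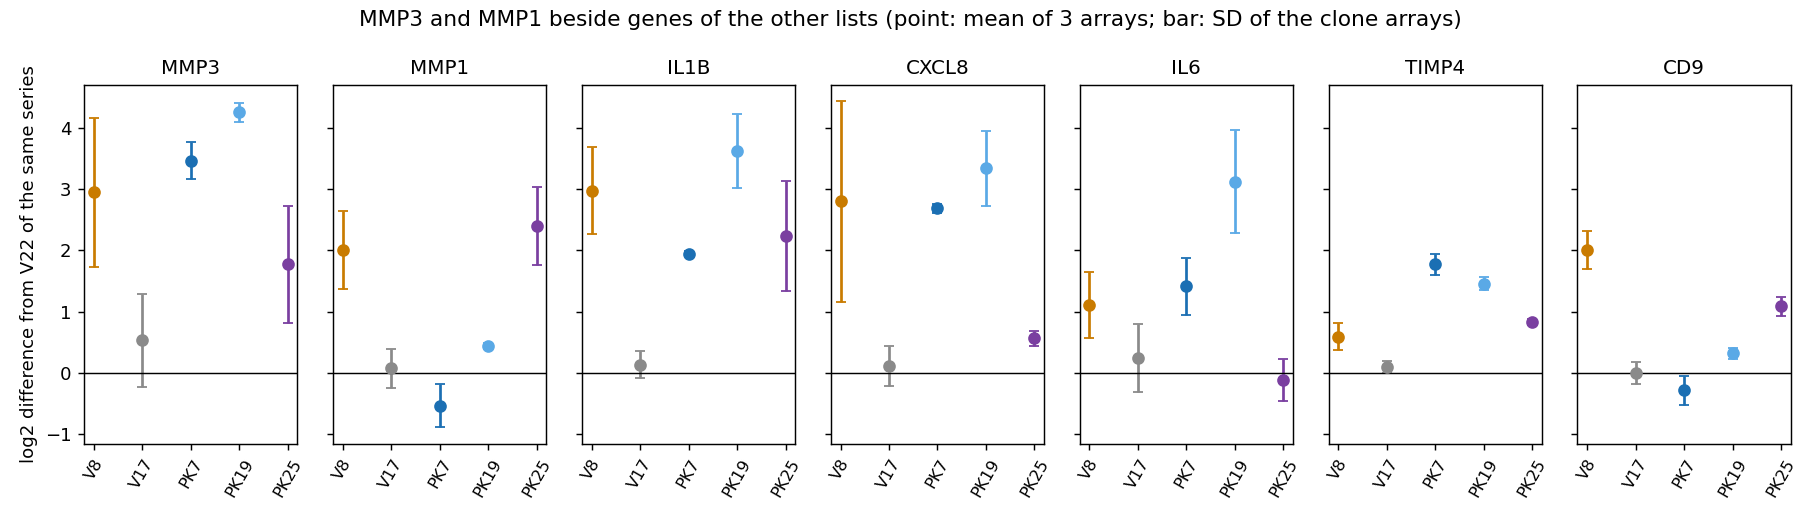
Log2 difference from V22 of the same array series in 5 clones for MMP3, MMP1 and 5 genes of the other lists. Points are means of 3 arrays and bars are the SD of the clone's arrays; IL1B lies between 1.95 and 3.63 in V8, PK7, PK19 and PK25, and CD9 is highest in V8 (2.01) and PK25 (1.09).

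Genes whose array values were most like those of MMP1 and MMP3 were ranked by Pearson r over the 21 arrays among 8718 genes with a mean log2 intensity above 7, after subtraction of the V22 mean of the series. For MMP1 they were GPRC5A (r = 0.92), CLMP (0.91) and CD9 (0.88), and for MMP3 they were MGST1 (0.94), HSPB8 (0.94) and UGCG (0.93). HSPB8, a small heat shock protein gene, differed from V22 by 2.17 in V8, 2.58 in PK7, 2.61 in PK19 and 1.24 in PK25. GPRC5A differed by 0.97 in V8 and 0.78 in PK25 and by at most 0.18 in size in the other clones. The arrays share clones and series, so these values are descriptions and carry no p.

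Cell identity and array quality were examined beside these values. Of 12 glioblastoma and astroglial markers 7 were brighter than the median probe set, among them VIM, CD44 and TNC, while S100B and AQP4 were among the dimmest 30%. GFAP, at percentile 50.4 of all probe sets, was only just among the 7. Below the median were also SOX2 (percentile 49.1), OLIG2 (40.8) and FABP7 (34.7). Above the median probe set were 2 of 10 blood and macrophage markers (CD68 and TYROBP) and 2 of 8 endothelial markers (TEK and CLDN5). The same held for 2 of 8 epithelial markers (KRT14 and KRT18) and 5 of 10 fibroblast and pericyte markers. The glial marker CHI3L1 rose by 3.83 in PK7, SLC1A3 fell by 1.27 in V8 and by 1.12 in PK25, and SOX2 fell by 1.09 in PK19. SOX2 also stood at -0.97 in PK7 and -0.97 in V8, just under 2-fold (limma adjusted p = 0.00287 and 0.00619). The PK25 call of SLC1A3 was lost relative to its neighbours and without the PK25 array of set 3. The PK19 call of SOX2 was lost with 16 added and without the V22 array of set 6. No marker of blood, endothelium or epithelium passed limma's adjusted p and 2-fold, and between 0 and 3 per list and clone had an unadjusted p under 0.05, against the shares of all probe sets given with the AP-1 genes. Among the dimmest 30% were 5 of 10 blood markers, PTPRC included, and 4 of 8 endothelial markers, PECAM1 and VWF included. Of the 8 epithelial markers only EPCAM and CDH1 were. The mean log2 level of the blood list was 5.32 to 5.42 in V8, 5.33 to 5.41 in PK7, 5.37 to 5.50 in PK19, 5.38 to 5.61 in PK25 and 5.33 to 5.50 in V22. In a culture of 1 clone, fewer cells with a transcript and less transcript per cell cannot be told apart. Array medians were 6.21 to 6.37, and the arrays least like their own clone were PK25 set 3, PK7 set 2, V8 set 2 and PK25 set 2. Parkin's own transcript was not analysed here.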

How the data were processed

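Total RNA of 21 samples was hybridised to Affymetrix gene arrays. The authors deposited RMA intensity on a linear scale; RMA is named in the submitters' processing notes, with its version and any joint normalisation of the 21 arrays not given in the sources used here. Intensities were converted to log2 values. The table gave 1 symbol for 19305 probe sets, several for 1750 and none listed for 5892.

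Clones were compared with V22 of the same series, and all probe sets entered limma 3.58.1 (lmFit, eBayes, R 4.3.3) with 7 clone-by-series means. Parkin and vector were compared on 6 clone means. Adjustment was by Benjamini-Hochberg, and the pipeline was tested on simulated data. In the simulated clone means the spread was that between arrays of a clone. The simulation therefore does not measure the power or error of the parkin against vector comparison. Set numbers were not entered as pairs in the main fits.

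The members and gene lists were chosen with earlier results of these data known. Named genes are the 10 members, up to 3 changed genes per list and clone (some also given in other clones), the chromosome 11 cluster, and the 3 genes most like MMP1 or MMP3. Precision is limited by the number of arrays and clones. Alternatives covered normalisation, centring, an added 16, dim probe sets, neighbours, the variance model, the fold threshold and omitted arrays or clones.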

Additional observations from a re-analysis of the deposited data

Results flagged for a closer look

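For 5 genes the arrays of at least 1 parkin clone lay all above the V22 mean of the second series while those of another lay all below it. The difference between the clones was not tested in any of these cases. MMP1 stood at -0.55 in PK7, 0.44 in PK19 and 2.41 in PK25 relative to V22. MMP2 stood at 0.59 in PK7, 0.44 in PK19 and -0.74 in PK25. MMP14 stood at 0.24 in PK7, -0.51 in PK19 and -0.16 in PK25, but relative to its chromosomal neighbours it stood at 0.54, 0.17 and 0.08, on the same side of V22 in all 3. MMP7, with a dim probe set, stood at 0.34 in PK7 and -0.19 in PK19. TIMP2 stood at 0.18 in PK7 and -0.18 in PK19, and the PK7 value was 0.033 without the PK7 array of set 2.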

How the results depend on the processing

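Differences of the 10 genes from V22 were recomputed with other normalisation, centring, an added 16, neighbours and omitted arrays. None of the genes past 2-fold changed direction or fell under 2-fold. The variance model, the removal of dim probe sets and the fold threshold cannot alter a difference of means. At 1.5-fold in place of 2-fold, 2 genes passed in PK7, 2 in PK19 and 3 in PK25. With log2(value + 16), 33 in place of 52 probe sets were called in PK25. Leaving out 1 array gave 37 to 81 calls in PK25 (81 without its set 2 array) and 0 to 2 for V22 between the series.

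In the parkin against vector comparison the small differences turned sign under several settings. Without adjustment for the series MMP1 stood at -0.34, MMP7 at -0.22 and TIMP1 at -0.21. V22 of the second series minus V22 of the first was -0.50 for MMP1, -0.34 for MMP7 and -0.25 for TIMP1. The adjustment, where made, adds this difference to the arrays of the first series. In the second series alone 0 probe sets were called and TIMP2 stood at -0.056. With V17 and V22 as 1 clone MMP1 stood at -0.26 and TIMP1 at -0.011. Leaving out 1 clone gave 1 to 38 calls (3 without V8, 38 without PK25), and ranges of -0.75 to 0.73 for MMP1, -0.11 to 0.16 for MMP7, -0.13 to 0.53 for MMP2, -0.24 to 0.13 for MMP14, -0.043 to 0.054 for TIMP1 and -0.026 to 0.21 for TIMP2. The cause was not tested.

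Same-set correlations of array deviations were 0.06 to 0.22 in the first series, all above the -0.14 to 0.05 of different sets. Among parkin arrays they were -0.09 to 0.38, against -0.36 to 0.32 for different sets. The main fits did not take the set numbers as pairs, so a deviation shared by the arrays of a set was not removed there. Sets were also entered as a replicate block, in a fit that took arrays as observations and left out the series adjustment. That fit lacked the V22 arrays of the second series. All its vector arrays were of the first series and all its parkin arrays of the second. Group and series therefore cannot be told apart in it, and 4097 probe sets were called. MMP3 stood at 2.22 (limma adjusted p = 0.0238), TIMP3 at 0.28 (0.0238), MMP1 at -0.43, MMP7 at -0.28 and TIMP1 at -0.25 (0.00881). For TIMP1, V22 itself stood at -0.25 in the second series relative to the first. Adjusted p over all settings ran from 0.0238 to 1.00 for MMP3 and TIMP3. Of the 10 genes MMP7 and MMP10 had dim probe sets, which limits their differences.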
